A study of Mus musculus with 6 samples.

Results

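The small leucine-rich proteoglycans (SLRPs) are a family of secreted matrix proteins, and 8 genes of the family were chosen by name: Dcn, Lum, Bgn, Fmod, Ogn, Omd, Prelp and Aspn. All 8 were found among the 16593 genes named on the array, through 12 of its 25697 probes. RNA came from adult female C57Bl6 mice (C57BL6/J in the study's methods) after injury of the left sciatic nerve, the large mixed nerve of the hind limb, and was hybridised to 6 Illumina MouseRef-8 v2.0 arrays. The 6 conditions were sciatic nerve at day 1 and at day 5 after transection, with the segments on both sides of the cut pooled, sham-operated sciatic nerve, the lumbar dorsal root ganglia (DRG, which hold the cell bodies of the sensory neurons of the nerve) of the injured side at day 5, sham DRG, and spinal cord at day 5. For the controls the labels speak of normal tissue (right-sided for the nerve) and the study's text of a sham operation, and the labels' protocol covers crush as well as transection where the text gives transection for the arrays. The title of the cord array marks the ipsilateral side, and no sham cord was measured. The title code of the control DRG starts with RL and that of the injured-side DRG with LL. Read as right and left, these put side and injury together in both tissues. RNA of 6 animals was pooled for each array and each condition had a single array, so differences between conditions have no replicate check and carry no p-value. Whole pieces of tissue were used, and each condition as a model is limited to what such a pooled piece holds.

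SLRPs consist of a small core protein built of leucine-rich repeats, and most carry chains of chondroitin, dermatan or keratan sulphate. Many bind collagen fibrils and set their diameter and spacing, and some bind growth factors such as TGF-beta or, once released, toll-like receptors. In peripheral nerve the collagenous matrix is made largely by the fibroblasts of the endoneurium and epineurium and by the perineurial cells that wrap each fascicle. Decorin (Dcn), biglycan (Bgn) and asporin (Aspn) form class I of the family, fibromodulin (Fmod), lumican (Lum), prolargin (Prelp) and osteomodulin (Omd) class II, and osteoglycin (Ogn, also called mimecan) belongs to class III.

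The values are scaled signals: the mean intensity of the beads of a probe, with each array scaled to a common median and no background subtracted. A gene counted as detected on an array where its deposited detection p-value was under 0.05, and the array detected 50.9 to 54.5% of its probes. For a gene with several probes the brightest was used. Intervals are 95% intervals from the standard error over the beads of a probe, so they cover the technical error within an array and not the variation between animals. The probes used for the members had 24 to 52 beads, and bead standard errors of 3.63 to 9.54% of the signal. Signals of different genes come from different probes and were not set against each other. Markers of sensory neurons were all detected in both DRG (5 of 5), against at most 2 of 5 in any nerve array. Of 9 markers of spinal cord neurons and glia, 8 were detected in the day 1 nerve and 8 in the sham DRG, against 1 in the day 5 nerve, 2 in the day 5 DRG, 2 in the sham nerve and 9 in the spinal cord. Their summed signal was 3252 in the day 1 nerve and 4032 in the sham DRG, against 1245 in the day 5 nerve, 960.1 in the day 5 DRG, 1001 in the sham nerve and 44835 in the cord. The day 1 nerve and sham DRG arrays therefore stood apart from their labels in these genes, and with 1 array per condition a result that uses either cannot be given without it. Summed marker signals also hold undetected genes and unsubtracted background. Low sums are thus largely background, and ratios between sums are drawn toward 1. The brightest gene of a list weighs most in its sum.

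Of the 8 genes, 7 were detected on at least 1 array and 6 on all 6 arrays. Decorin, which binds collagen I and TGF-beta, had signals of 44721 in the sham nerve, 31410 in the day 1 nerve and 24539 in the day 5 nerve. It had 14647 in the day 5 DRG, 16017 in the sham DRG and 3832 in the spinal cord. All 3 nerve arrays thus lay above both DRG arrays, and the DRG arrays above the cord. Biglycan, its closest relative and a ligand of toll-like receptors when free of the matrix, had 6602 in the sham nerve, 4913 in the day 1 nerve and 16702 in the day 5 nerve. It had 1592 in the day 5 DRG, 2694 in the sham DRG and 933.6 in the cord. The day 5 nerve was the highest array for Bgn and the cord the lowest. Asporin, the remaining class I member, lay between 92.5 and 114 on the 6 arrays and was detected on none of them.

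Lumican, a regulator of fibril spacing best known from the cornea, had 13996 in the sham nerve, 5030 in the day 1 nerve and 14458 in the day 5 nerve. It had 2103 in the day 5 DRG, 1631 in the sham DRG and 302.2 in the cord, a span of 47.9-fold over the 6 arrays and the widest of the 8 genes. Prolargin, which links basement membranes to the collagen beside them, had 11757 in the sham nerve, 4609 in the day 1 nerve and 7277 in the day 5 nerve, with 1458 in the day 5 DRG, 1854 in the sham DRG and 971.2 in the cord. In both genes the day 1 nerve was the lowest nerve array. Fibromodulin, which binds fibrils at sites it shares with lumican, had 457.8 in the sham nerve, 166.8 in the day 1 nerve, 191.5 in the day 5 nerve and 169.9 in the cord. It was not detected in the day 5 DRG (94.6) or the sham DRG (115). Osteomodulin, a keratan sulphate proteoglycan first described in bone, had 953.8 in the sham nerve, 331.9 in the day 1 nerve and 275.6 in the day 5 nerve. Its 3 other signals, 119 in the day 5 DRG, 129.7 in the sham DRG and 126 in the cord, were near the lowest signal detected on these arrays (117 to 124), so its folds against them are drawn toward 1. Osteoglycin, which also takes part in collagen fibril formation, had 27092 in the sham nerve, 16372 in the day 1 nerve and 7701 in the day 5 nerve, and 4765 in the day 5 DRG, 4112 in the sham DRG and 1829 in the cord. Its 3 nerve signals were well apart from each other.

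**Figure D1:**
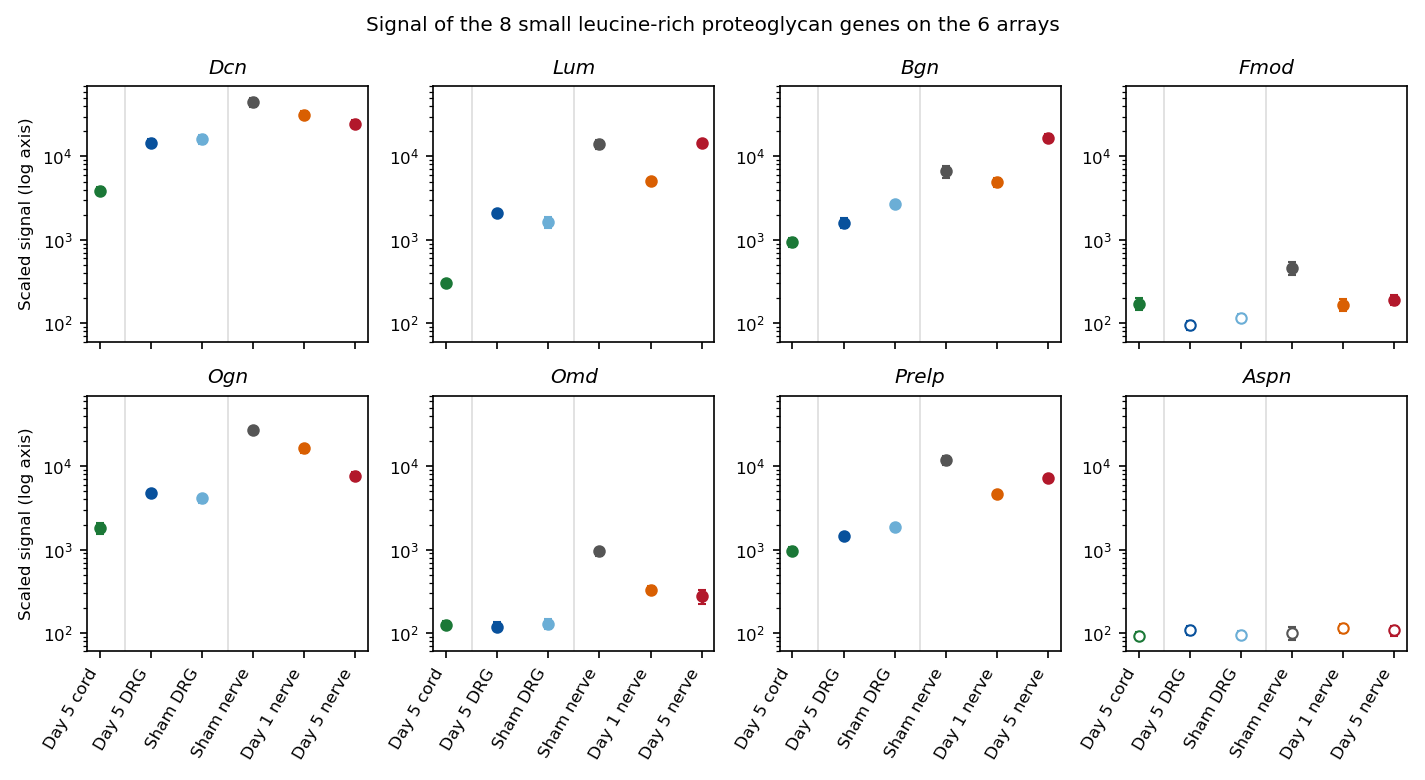
Scaled signal on a log axis of each of the 8 genes on the 6 arrays, with bars for the 95% interval from the beads and open symbols where the gene was not detected. The sham nerve was the highest array for Dcn, Fmod, Ogn, Omd and Prelp, the day 5 nerve was the highest for Bgn (16702), and Aspn stayed between 92.5 and 114.

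Over the 6 arrays the order of the levels was clear in most places. For Bgn, Ogn and Prelp each array was separated from the next by a bead interval that excluded a ratio of 1, although for Ogn the day 5 DRG and the sham DRG were only just separated (1.16-fold, 1.00 to 1.34). For Dcn the neighbours that were not separated were the day 5 DRG and the sham DRG, and for Lum the day 5 nerve and the sham nerve. For Omd the day 5 nerve was not separated from the day 1 nerve, nor the cord from either DRG. For Fmod the cord, the day 5 nerve and the day 1 nerve formed such a run below the sham nerve.

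On day 1 all 7 detected SLRPs gave a lower signal in the transected nerve than in sham nerve, with each bead interval of the log2 difference below 0. Of the 7 genes, 4 were at least 2-fold lower and 0 at least 2-fold higher, where 3.59% of all 10234 genes detected in either array were at least 2-fold lower and 6.54% at least 2-fold higher. The median log2 difference of the 7 was -1.35, and that of all genes -0.01. The 4 that passed were the class II members. Omd was 2.87-fold lower (95% bead interval 2.49 to 3.31), Lum 2.78-fold (2.40 to 3.22), Fmod 2.75-fold (2.15 to 3.51) and Prelp 2.55-fold (2.17 to 2.99). The differences among these 4 were within their bead intervals for these signals, which hold background. After a background correction by neqc the log2 differences were -2.20 (Fmod), -1.91 (Omd), -1.56 (Lum) and -1.49 (Prelp). The closeness of the dim genes Fmod and Omd to Lum and Prelp thus depended on the processing. Ogn was 1.65-fold lower (1.42 to 1.93), Dcn 1.42-fold lower (1.22 to 1.67) and Bgn 1.34-fold lower (1.09 to 1.65). The change of Lum was 2.07-fold larger than that of Bgn and 1.68-fold larger than that of Ogn, and the bead intervals of both differences excluded 0 on the log2 scale. In tissue samples such as these, fewer cells of a type and less RNA per cell cannot be told apart.

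Markers of several cell types differed on day 1 as well. Of 8 fibroblast markers, 6 were at least 2-fold lower, and the summed signal of the list was 24594 in the day 1 nerve and 55178 in the sham nerve (median log2 difference -1.30). The summed signal of 5 perineurial markers was 20941 in the day 1 nerve and 32006 in the sham nerve, with 2 of 5 lower. Adipocyte markers, of which Retn was not detected, summed to 4279 in the day 1 nerve and 18591 in the sham nerve, with 3 of 4 detected genes lower. Skeletal muscle markers summed to 3193 in the day 1 nerve and 7782 in the sham nerve, with 5 of 6 lower, while neutrophil markers summed to 29484 in the day 1 nerve and 571.8 in the sham nerve, with 4 of 4 higher. The 3 Schwann cell markers measured, Pmp22, Egr2 and Ncmap, summed to 45901 in the day 1 nerve and 50230 in the sham nerve, with 0 of 3 at least 2-fold apart. Markers of tendon and cartilage were near the floor (2 of 6 detected in the sham nerve and 1 in the day 1 nerve). The part of these cell types, and of the spinal cord markers in the day 1 nerve, in the lower SLRP signals was not tested.

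By day 5 the members lay on both sides of the sham level. Bgn was 2.53-fold higher (2.09 to 3.06) and was the only member at least 2-fold higher, while Ogn, Omd and Fmod were at least 2-fold lower. Among all 10121 genes detected, 6.3% were higher and 5.09% lower by that measure. Ogn was 3.52-fold lower (3.01 to 4.11), Omd 3.46-fold lower (2.79 to 4.30) and Fmod 2.39-fold lower (1.90 to 3.00). Dcn was 1.82-fold lower (1.54 to 2.16) and Prelp 1.62-fold lower (1.38 to 1.89). Lum was at 1.03 times the sham signal, with an interval of 0.892 to 1.20 that includes 1. The median of the 7 log2 differences was -0.87, beside -0.02 for all genes. The 2 class I genes that were detected thus lay on opposite sides of the sham level, and the log2 change of Dcn minus that of Bgn was -2.21 (95% bead interval -2.57 to -1.84). The change of Ogn minus that of Omd was -0.02, with an interval from -0.41 to 0.36. That closeness depended on the processing, since Omd is dim and no background was subtracted. With neqc the log2 differences were -1.81 for Ogn and -2.23 for Omd.

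Cell type markers on day 5 were likewise unequal. Fibroblast markers summed to 44102 in the day 5 nerve and 55178 in the sham nerve. Of the 8, 2 were at least 2-fold lower, namely Mfap5 and Clec3b, and the median log2 difference was -0.56. Within the sum the collagen genes Col1a1 (14199 in the day 5 nerve and 7673 in the sham nerve) and Col1a2 (2087 and 1891) were higher on day 5, and the other markers were lower. Perineurial markers summed to 12511 in the day 5 nerve and 32006 in the sham nerve, with 4 of 5 lower (Itgb4, Slc2a1, Lypd2 and Cldn1). Adipocyte markers summed to 4371 in the day 5 nerve and 18591 in the sham nerve, and skeletal muscle markers to 5557 in the day 5 nerve and 7782 in the sham nerve. Macrophage markers (4 measured) summed to 64041 in the day 5 nerve and 9886 in the sham nerve, and all 4 were higher, and neutrophil markers to 5033 in the day 5 nerve and 571.8 in the sham nerve. Smooth muscle and pericyte markers summed to 15870 in the day 5 nerve and 9984 in the sham nerve, with 1 of 5, Rgs5, higher and a median log2 difference of -0.15. Most of that sum was Acta2 (14426 in the day 5 nerve and 8571 in the sham nerve). Myh11 (379.8 and 436.0), Tagln (317.3 and 352.5) and Pdgfrb (402.0 and 454.1) were slightly lower on day 5. The Schwann cell markers summed to 23771 in the day 5 nerve and 50230 in the sham nerve, with Ncmap and Egr2, genes of the myelinating Schwann cell, lower. The part of these markers in the SLRP values was not tested.

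The nerve arrays of days 1 and 5 were then set against each other. Bgn was 3.40-fold higher on day 5 than on day 1 (2.86 to 4.05) and Lum 2.87-fold higher (2.60 to 3.18), 2 of 7 genes where 3.25% of all genes were at least 2-fold higher. Ogn was 2.13-fold lower on day 5 than on day 1 (1.81 to 2.50), 1 of 7 where 4.65% of all genes were lower. The Ogn value lay close to the limit: its log2 difference was -1.09, but -0.90 with quantile normalization alone or after a background correction by neqc, and -0.99 in the deposited processed table and for the mean of its 3 probes, so that in these 4 settings it was under 2-fold. Prelp was 1.58-fold higher (1.39 to 1.80) and Dcn 1.28-fold lower (1.09 to 1.496). The intervals of Omd (1.20-fold lower) and Fmod (1.15-fold higher) included no difference. The median of the 7 was 0.20, beside -0.02 for all genes. Between the same arrays, 5 of 8 fibroblast markers were at least 2-fold higher on day 5 than on day 1 (median log2 difference 1.04), as were 3 of 4 macrophage markers (median 1.54), while 2 of 3 Schwann cell markers, 3 of 4 neutrophil markers and 6 of 8 detected spinal cord markers were lower (medians -1.35, -2.53 and -1.38). Their part in the SLRP values was not tested. These 3 nerve comparisons share arrays with each other and with the tissue comparisons, so the values of a gene in them are not independent.

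**Figure D2:**
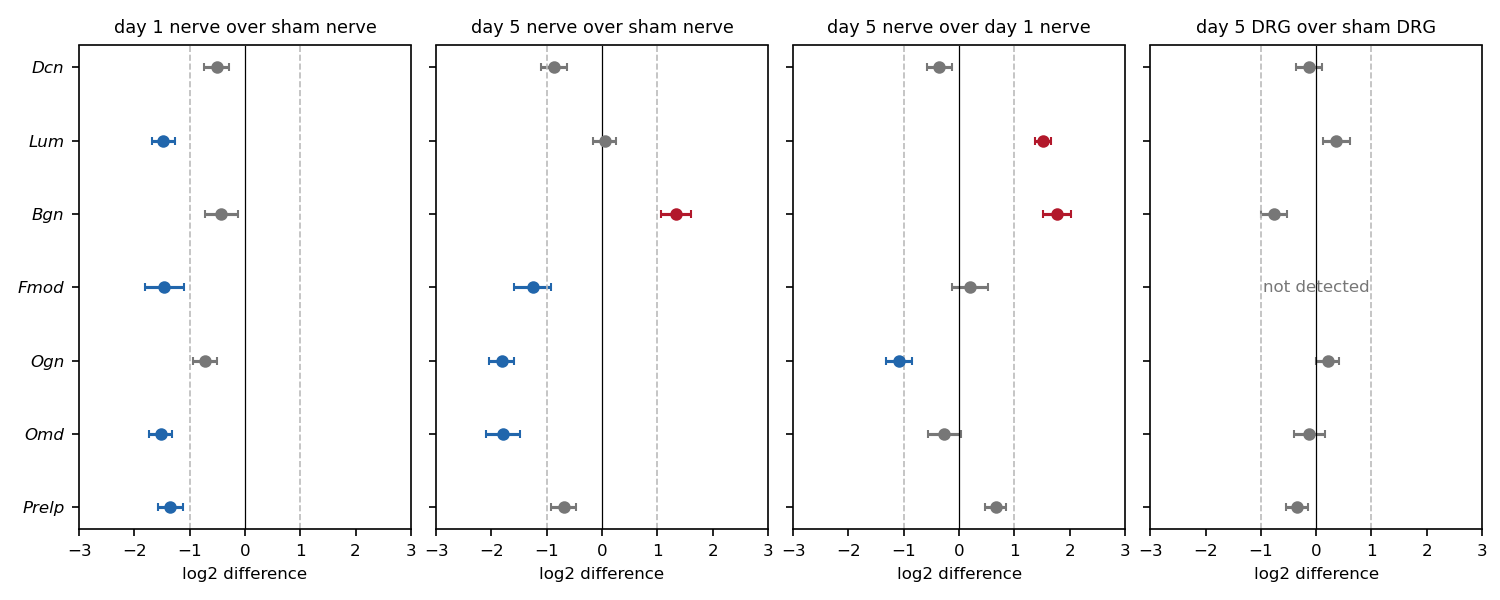
Difference in log2 signal of the 7 detected genes in 4 comparisons, with 95% bead intervals and dashed lines at 2-fold. Red marks genes at least 2-fold higher, blue at least 2-fold lower and grey those between. All 7 points lie below 0 on day 1, Bgn (1.34) and Ogn (-1.81) lie far apart on day 5, and no point passes 2-fold in the DRG.

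In the DRG at day 5 none of the 6 SLRPs detected was 2-fold away from the sham DRG (0 higher and 0 lower), where 0.854% of all 10191 genes were higher and 0.324% lower. Bgn was 1.69-fold lower in the day 5 DRG (1.44 to 1.99) and Prelp 1.27-fold lower (1.11 to 1.45), while Lum was 1.29-fold higher (1.09 to 1.52) and Ogn 1.16-fold higher (1.00 to 1.34). The intervals of Dcn (1.09-fold lower) and Omd (1.09-fold lower, with both signals near the floor) included no difference, and Fmod was detected in neither DRG. The median of the 6 log2 differences was -0.12, and that of all genes 0.00. Fibroblast markers summed to 11969 in the day 5 DRG and 11156 in the sham DRG, with 0 of 7 detected genes 2-fold apart, and macrophage markers to 6000 in the day 5 DRG and 2684 in the sham DRG, with 3 of 4 higher. Of the spinal cord markers 6 were at least 2-fold lower in the day 5 DRG than in the sham DRG. What part these had in the SLRP values was not tested.

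The day 5 changes of nerve and DRG, each against its own sham array, were compared gene by gene. The log2 change of Bgn in the nerve minus that in the DRG was 2.10 (95% bead interval 1.74 to 2.46). The change in the nerve minus that in the DRG was -2.03 for Ogn (-2.33 to -1.72), -1.67 for Omd (-2.09 to -1.25) and -0.74 for Dcn (-1.07 to -0.40). For Prelp it was -0.35 and for Lum -0.32, with upper limits close to 0. For Omd both DRG signals (119.4 on day 5 and 129.7 in sham) were near the lowest detected signal, so its DRG change is drawn toward 0. Every DRG change here uses the sham DRG array, in which 8 of 9 spinal cord markers were detected. These intervals hold bead error alone, so a difference between animals of the same size is not covered.

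Between tissues, the nerve gave the higher signals. In the sham DRG all 7 genes were at least 2-fold lower than in the sham nerve, and 0 were higher, where 11.0% of all genes were lower and 12.0% higher. Lum was 8.58-fold lower (7.10 to 10.4), Omd 7.35-fold (6.14 to 8.81), Ogn 6.59-fold (5.67 to 7.66), Prelp 6.34-fold (5.40 to 7.45), Dcn 2.79-fold (2.34 to 3.33) and Bgn 2.45-fold (2.04 to 2.94). Fmod, not detected in the sham DRG, was at least 3.92-fold lower. The median log2 difference was -2.66, and that of all genes -0.05. At day 5 the gap between the tissues was of another shape, since 4 genes were at least 2-fold lower in the day 5 DRG than in the day 5 nerve and 0 higher, where 12.5% of all genes were lower and 11.9% higher. Bgn was now 10.49-fold lower in the DRG (8.83 to 12.5), Lum 6.88-fold (6.16 to 7.68), Prelp 4.99-fold (4.38 to 5.68) and Omd 2.31-fold (1.84 to 2.90). By the probes used, Dcn (1.67-fold lower) and Ogn (1.62-fold lower) were under 2-fold apart by then, and Fmod was at least 1.61-fold lower. This comparison uses neither of the arrays in which 8 spinal cord markers were detected. Fibroblast markers summed to 11156 in the sham DRG and 55178 in the sham nerve, and to 11969 in the day 5 DRG and 44102 in the day 5 nerve. In the sham DRG against the sham nerve 8 of 8 fibroblast markers, 4 of 5 perineurial, 3 of 4 detected adipocyte, 4 of 5 smooth muscle and pericyte, 3 of 4 macrophage and 2 of 3 Schwann cell markers were at least 2-fold lower, while 5 of 5 sensory neuron, 6 of 9 spinal cord and 3 of 4 neutrophil markers were higher. In the day 5 DRG against the day 5 nerve 7 of 8 fibroblast, 3 of 5 perineurial, 3 of 3 detected adipocyte and 4 of 4 macrophage markers were lower. Their part in the SLRP values was not tested.

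Spinal cord, a tissue with little fibrillar collagen outside its meninges and vessels, had the lowest signal of Dcn, Lum, Bgn, Ogn and Prelp. In the cord all 7 genes were at least 2-fold lower than in the sham nerve and 0 were higher, where 12.6% of all genes were lower and 12.0% higher. The cord was taken at day 5 after injury and has no sham cord beside it, so here tissue and injury cannot be told apart. Lum was 46.3-fold lower (39.4 to 54.4), Ogn 14.8-fold, Prelp 12.1-fold, Dcn 11.7-fold, Omd 7.59-fold, Bgn 7.07-fold and Fmod 2.69-fold lower, and the median log2 difference was -3.54. Against the day 5 DRG 3 genes were at least 2-fold lower in the cord, Lum (6.96-fold), Dcn (3.82-fold) and Ogn (2.60-fold, which 1 of its 3 probes passed), and 0 were higher, where 7.51% of all genes were lower and 6.08% higher. Bgn was 1.71-fold and Prelp 1.501-fold lower in the cord, and the interval of Omd included no difference (0.888 to 1.25). Fmod was at least 1.43-fold higher by the probe used, while the interval of its other probe included no difference. Markers of meningeal fibroblasts summed to 2064 in the cord (6 of 6 detected), 2423 in the day 5 DRG (5 of 6) and 2257 in the sham nerve (4 of 6). The like sums hold genes that ran in opposite directions. Slc47a1 had 837.9 in the cord, 1144 in the day 5 DRG and 197.8 in the sham nerve, and Slc6a13 had 552.4, 661.0 and 1489. The sums therefore do not measure how much meningeal tissue each array held. Fibroblast markers summed to 3728 in the cord, 11969 in the day 5 DRG and 55178 in the sham nerve. The part of tissue taken with the cord was not tested.

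For 3 genes the array carried more than 1 probe, and each probe gives its own reading. The 2 Dcn probes gave close values within the nerve, 1.82-fold lower on day 5 for the probe used and 1.88-fold lower for the other. They differed between tissues: in the sham DRG against the sham nerve Dcn was 2.79-fold and 4.10-fold lower, and in the cord against the sham nerve 11.7-fold and 27.2-fold lower. In the day 5 DRG against the day 5 nerve the second Dcn probe passed the 2-fold limit (2.46-fold lower) and the first did not. The 2 Fmod probes were 2.75-fold and 2.44-fold lower on day 1 and 2.39-fold and 2.36-fold lower on day 5, each against the sham nerve. Between tissues the second Fmod probe gave smaller bounds. It was at least 2.78-fold lower in the sham DRG than in the sham nerve, where the first gave 3.92-fold. For the day 5 DRG against the day 5 nerve (1.15-fold lower, 0.979 to 1.36) and the cord against the day 5 DRG (1.10-fold higher, 0.885 to 1.37) its intervals included no difference. The 3 Ogn probes were 3.52-fold, 4.33-fold and 3.46-fold lower in the day 5 nerve than in the sham nerve. On day 1 they were 1.65-fold, 1.89-fold and 2.16-fold lower, so that 1 of 3 passed the limit, and from day 1 to day 5 the first 2 passed (2.13-fold and 2.29-fold lower) and the last did not (1.60-fold lower). In the cord against the day 5 DRG the probe used was 2.60-fold lower and the others 1.90-fold and 1.65-fold lower, so that 1 of 3 passed. In the DRG the Ogn probes differed in sign, with log2 differences of 0.21, 0.48 and -0.06.

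**Figure D3:**
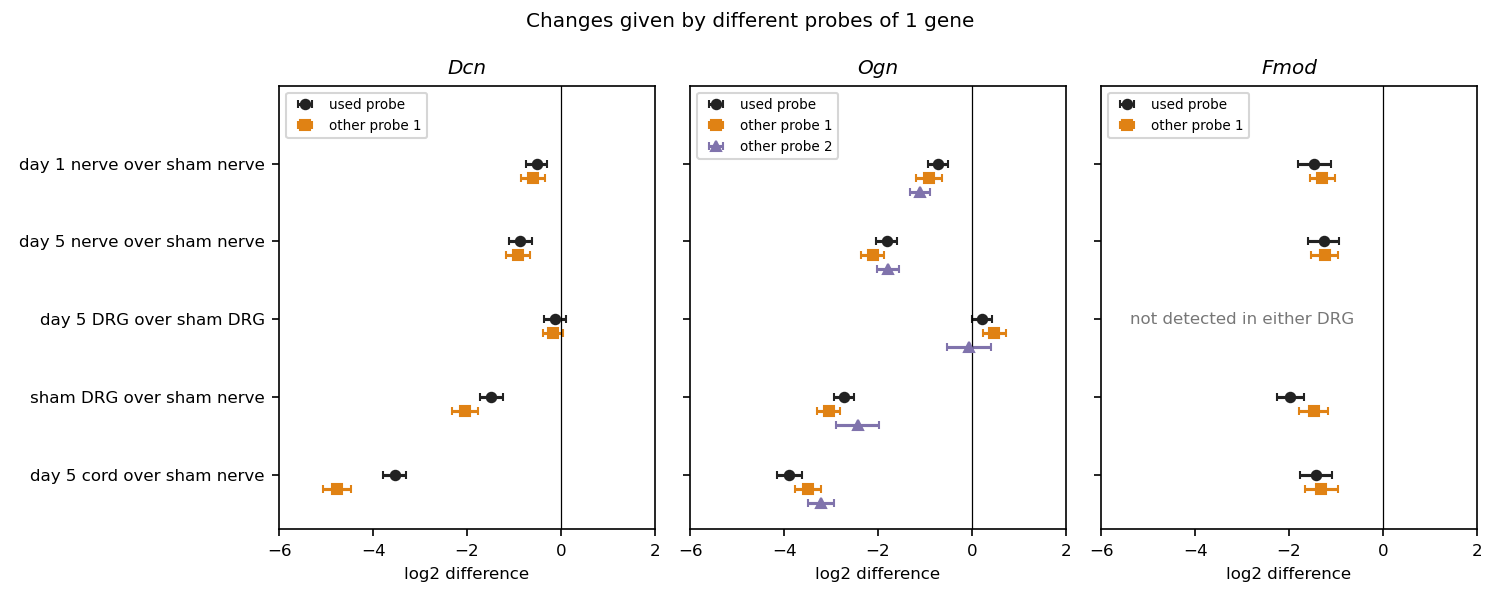
Difference in log2 signal by probe for Dcn, Ogn and Fmod in 5 comparisons, with 95% bead intervals. The circles are the probes used for the gene. The day 5 nerve values of the 3 Ogn probes lie between -2.11 and -1.79, while the Dcn probes part in the cord (-3.54 and -4.77).

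Several of the 8 genes lie beside each other in the mouse genome. By the RefSeq gene table of assembly GRCm38.p6, Ecm2, Aspn, Omd and Ogn follow each other on chromosome 13, Dcn and Lum, followed by Kera, on chromosome 10, and Optc, Prelp and Fmod on chromosome 1, while Bgn stands apart on chromosome X. Neighbours did not always move alike. On day 5 Omd and Ogn were 3.46-fold and 3.52-fold lower in the nerve than in sham, values less alike after background correction. Ecm2, a related extracellular matrix gene, was 1.61-fold lower (131.8 in the day 5 nerve and 212.4 in the sham nerve). Aspn, between Ecm2 and Omd, was not detected. The log2 change of Dcn on day 5 minus that of its neighbour Lum was -0.91 on the log2 scale (-1.23 to -0.59), and the change of Fmod minus that of Prelp was -0.57 (-0.96 to -0.16). Kera (keratocan) and Optc (opticin), SLRPs best known from the eye, were detected in none of the nerve or DRG arrays.

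The promoters of 3 members are shown because Bgn was the only member at least 2-fold higher on day 5, and Ogn and Omd are the neighbours that were lowest there. RefSeq start sites of GRCm38.p6 were matched for 6 of the 8 genes, and each window holds 250 bases before the start and 50 after it. They lie at chrX:73483351-73483650 (Bgn), chr13:49607765-49608064 (Ogn) and chr13:49582212-49582511 (Omd), all on the plus strand. Capitals mark matches on either strand to 4 motifs. TATAAA is the core of the TATA box, where transcription factor TFIID binds. CCAAT is the box bound by NF-Y. GGGCGG is the GC box, known as a binding sequence of Sp1 and its relatives. TGANTCA is the site of AP-1, a dimer of Fos and Jun proteins.
Bgn: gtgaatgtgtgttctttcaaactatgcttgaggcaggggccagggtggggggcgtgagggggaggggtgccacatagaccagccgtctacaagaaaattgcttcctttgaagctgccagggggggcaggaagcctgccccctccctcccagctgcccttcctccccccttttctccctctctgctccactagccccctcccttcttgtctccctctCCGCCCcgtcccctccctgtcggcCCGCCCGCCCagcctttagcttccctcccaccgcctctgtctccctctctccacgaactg
Ogn: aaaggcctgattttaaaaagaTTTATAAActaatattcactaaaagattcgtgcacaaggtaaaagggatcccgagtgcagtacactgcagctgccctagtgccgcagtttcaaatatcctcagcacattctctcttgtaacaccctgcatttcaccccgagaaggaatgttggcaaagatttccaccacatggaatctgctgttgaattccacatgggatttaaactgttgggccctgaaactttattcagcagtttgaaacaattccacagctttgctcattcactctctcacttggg
Omd: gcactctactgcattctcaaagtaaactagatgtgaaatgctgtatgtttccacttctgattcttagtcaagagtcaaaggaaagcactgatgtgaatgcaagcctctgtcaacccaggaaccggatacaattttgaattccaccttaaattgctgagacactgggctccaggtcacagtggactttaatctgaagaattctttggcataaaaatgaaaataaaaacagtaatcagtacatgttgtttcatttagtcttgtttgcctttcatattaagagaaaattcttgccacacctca
The Bgn window was rich in G and C (63.7%, with a median of 52.7% over 32851 promoters) and held 3 GC boxes between 34 bases before the start and the start, the last 2 overlapping. A GC box was found in 35.7% of all promoters and in no other of the 6 members. The Ogn and Omd windows were poorer in G and C (42.3% and 37.7%). Ogn held a pair of overlapping TATA box matches on opposite strands, far from the usual place of a TATA box (229 and 227 bases before the start), and such a match was found in 13.6% of all promoters. Omd held no match to any of the 4 motifs. The CCAAT box, found in 37.4% of all promoters, was present in Fmod, Prelp and Aspn, and the AP-1 site, found in 7.81%, in none of the 6. A match is a description of the letters and not a site of binding.

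The genes whose log2 signal ran most like a member over the 6 arrays were taken from 5035 genes that were detected on at least 3 arrays and spanned at least 1 log2 unit over the 6 arrays. For Lum these were Fam114a1, Nid2, a basement membrane protein, and Pcolce, which enhances procollagen processing (Pearson r 0.999, 0.997 and 0.997). For Bgn they were Pskh1, Ifngr1, an interferon gamma receptor chain, and Mmrn2, an endothelial matrix protein (0.994, 0.989 and 0.988), and for Dcn Ctns, Fam50a and Dhh, the morphogen by which Schwann cells organise the perineurium (0.995, 0.994 and 0.993). For Ogn they were Il16, B3gnt5 and Tgfbr3, the TGF-beta coreceptor betaglycan (0.997, 0.997 and 0.996). For Omd they were Cidec, an adipocyte lipid droplet protein, Dpep1 and Pon1 (0.998, 0.996 and 0.996), for Prelp Sfrp4, Fkbp9 and Lpl, the lipoprotein lipase of fat and muscle (0.999, 0.996 and 0.996), and for Fmod Ephx2, Wnt10a and Slc27a1 (0.999, 0.986 and 0.981). Between members r was 0.943 at most (Lum and Prelp) and 0.455 at least (Bgn and Fmod), so no member was among the 3 genes nearest to another. All these values rest on the same 6 arrays of 3 tissues, and many genes reach a high r over so few points.

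The collagens that SLRPs bind were measured on the same arrays. Of 11 detected genes of fibril-forming and fibril-associated collagens, 6 were at least 2-fold lower on day 1 (median log2 difference -1.18), 1 was at least 2-fold higher on day 5 (median 0.60, of 10 genes), and 9 of 11 were higher on day 5 than on day 1 (median 1.75). Among all genes 3.59% were lower on day 1, 6.3% higher on day 5 and 3.25% higher on day 5 than on day 1. The count of 1 of 10 on day 5 is near that share. Col1a1, the main chain of collagen I, had 7673 in the sham nerve, 3267 in the day 1 nerve and 14199 in the day 5 nerve. Col3a1 had 4751, 1898 and 6403 on the same arrays, and Col6a1, of the beaded microfibrils, 10487, 3991 and 14988. Each of these 3 collagens was thus lowest on day 1 and highest on day 5, an order shown among the SLRPs by Bgn and, with day 5 and sham not separated, by Lum. Col5a1, which starts fibril assembly, was the collagen that passed on day 5 (13125 in the day 5 nerve and 5215 in the sham nerve, 2.52-fold higher).

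**Figure D4:**
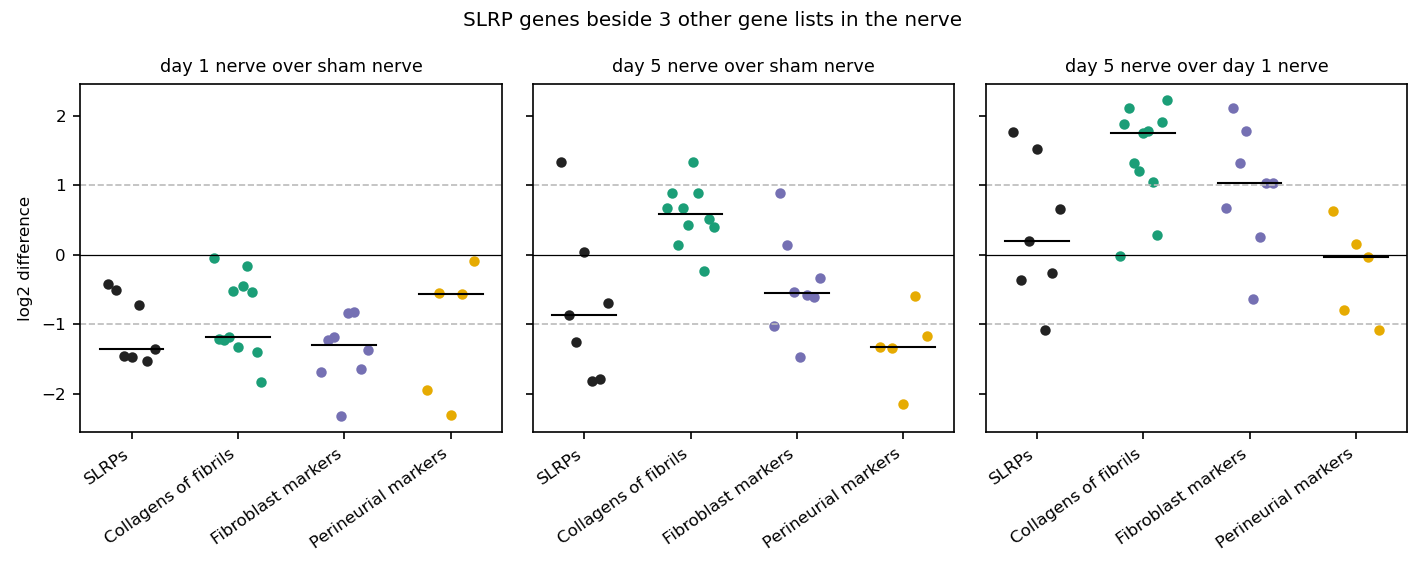
Difference in log2 signal of the detected SLRPs, collagens of fibrils, fibroblast markers and perineurial markers in 3 nerve comparisons, with bars at the medians and dashed lines at 2-fold. On day 5 the SLRP median is -0.87 and the collagen median 0.60.

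Genes that process collagen were called in both directions. On day 1, 3 of 14 were at least 2-fold lower (Tnxb, Pcolce and Pcolce2) and 1 higher (Plod3, a lysyl hydroxylase), where 3.59% of all genes were lower and 6.54% higher. On day 5, 3 of 16 were higher (Loxl1 and Loxl2, lysyl oxidases that cross-link collagen and elastin, and Plod3) and 1 lower (Tnxb), where 6.3% of all genes were higher and 5.09% lower. The 1 higher gene on day 1 and the 1 lower gene on day 5 are near those shares. Loxl1 had 2866 in the sham nerve, 2782 in the day 1 nerve and 7337 in the day 5 nerve. Tnxb, tenascin-X, had 5605, 2465 and 2489 on the same arrays and so did not return by day 5. Of the enzymes that build the sulphated sugar chains, 1 of 19 was lower and 0 higher on day 1, where 3.59% of all genes were lower and 6.54% higher, and 1 of 20 was lower and 1 higher on day 5, where 5.09% of all genes were lower and 6.3% higher. Chst2, which sulphates N-acetylglucosamine, was 4.25-fold lower in the day 1 nerve (562.7, against 2392 in the sham nerve) and 3.55-fold lower in the day 5 nerve (674.5), and Chsy1, a chondroitin synthase, was 2.35-fold higher on day 5 (1018, against 433.6 in the sham nerve). In the DRG 1 of 21 detected genes of the list was higher and 0 lower, where 0.854% of all genes were higher and 0.324% lower. That single gene was Chst2, with 2286 in the day 5 DRG and 909.4 in the sham DRG. The sham DRG array is one of those in which 8 of 9 spinal cord markers were detected.

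Receptors and growth factors that bind SLRPs were measured on the same arrays. On day 1, 2 of 16 were at least 2-fold higher and 1 lower, where 6.54% of all genes were higher and 3.59% lower. These day 1 counts are near those shares. On day 5, 4 of 16 were higher and 2 lower, where 6.3% of all genes were higher and 5.09% lower. Tlr2, a receptor for free biglycan, had 366.1 in the sham nerve, 2465 in the day 1 nerve and 1559 in the day 5 nerve, and its coreceptor Cd14 had 577.5, 3768 and 1318 on those arrays. Both were highest on day 1 among the nerve arrays. Tgfb1 was 2.53-fold higher on day 5 (913.9, against 361.3 in the sham nerve) and its receptor Tgfbr1 2.10-fold higher, while Tgfbr3 was 2.19-fold and Bmp4 2.13-fold lower. Tgfb3 was the gene that fell on day 1 (218.3, against 491.2 in the sham nerve).

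Of 10 detected proteases known to cut SLRPs, 5 were at least 2-fold higher and 1 lower on day 1, and 4 were higher and 0 lower on day 5. Among all genes 6.54% were higher and 3.59% lower on day 1, and 6.3% higher and 5.09% lower on day 5. Mmp14, a membrane-bound metalloproteinase, had 1836 in the sham nerve, 3884 in the day 1 nerve and 7000 in the day 5 nerve, and Adamts4 137.7, 500.7 and 542.8. Mmp9 had 246.9, 1393 and 605.3 on the same arrays, and Mmp13, not detected in the sham nerve, gave lower bounds of 4.49-fold higher on day 1 and 3.16-fold higher on day 5. Htra1 was 2.17-fold lower on day 1 (990.3, against 2152 in the sham nerve). Of other proteoglycans, 4 of 20 were higher and 2 lower on day 1, and 2 of 17 were higher and 1 lower on day 5. The day 5 counts are near the shares of all genes. Gpc1 (glypican-1) was 2.86-fold higher and Gpc3 2.08-fold lower on day 5, and Srgn, the proteoglycan of granules in white blood cells, was 5.40-fold higher on day 1. Among the other SLRP genes listed, 9 of 11 were measured and 3 detected on day 1 and 4 on day 5, and Podn (podocan) was lower on both days: 136.8 in the day 1 nerve and 159.4 in the day 5 nerve, against 435.3 in the sham nerve.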

How the data were processed

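Each of the 6 conditions was measured on a single MouseRef-8 v2.0 array of Illumina, all on 1 BeadChip. The authors deposited non-normalized intensity values (the mean over the beads of a probe, its standard error and the number of beads, without background subtraction or scaling) and a detection p-value per probe, computed against negative control beads. A second deposited file is a processed intensity table whose columns share the same quantiles, while the methods name the median as the basis of normalization. Agilent Feature Extraction 10.5 is the tool given in the submitters' processing notes. The title of the day 5 nerve array ends in a day 1 code, and its source name, which says day 5, was followed.

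Of 25697 probes, 23978 carried 1 gene symbol and 1719 were not named here. Arrays were scaled to the mean of their medians (factors 0.951 to 1.07), and undetected signals were set to the lowest detected signal of the array. A call of higher or lower needed a 2-fold difference and detection on the brighter array. With no detection on the dimmer array, the fold is a lower bound. Calls were tested on simulated copies of the sham nerve array, with bead noise and known folds in bright genes. That test does not cover variation between animals or arrays, dim genes, or folds just above the limit. Alternatives were no scaling, quantile normalization, neqc (limma 3.58.1, R 4.3.3), the processed table, a detection p under 0.01, the mean over probes, and limits of 1.5-fold and 3-fold. Named genes were the 8 members, for each member that spans 1 log2 unit the 3 genes most like it, up to 4 of the brightest genes of a list that passed 2-fold in a comparison, and cell type markers. Genes beside the members on a chromosome were added after values had been seen. The members and lists were chosen with earlier results of these data known.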

Additional observations from a re-analysis of the deposited data

Results flagged for a closer look

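Bgn had log2 differences of opposite sign on day 5, 1.34 in the nerve (16702 in the day 5 nerve and 6602 in the sham nerve) and -0.76 in the DRG (1592 in the day 5 DRG and 2694 in the sham DRG). The DRG value did not reach 2-fold, and it rests on the sham DRG array, which detected 8 of 9 spinal cord markers. Each is a difference between 2 arrays, and the difference between the tissues was not tested over animals.

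Bgn also lay on opposite sides of the sham nerve at the 2 time points, at -0.43 (day 1) and 1.34 (day 5) on the log2 scale, both against the same sham array. The day 1 value did not reach 2-fold, and 8 of 9 spinal cord markers were detected on the day 1 array. The difference was not tested.

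Ogn had a log2 difference of -1.81 in the day 5 nerve and 0.21 in the day 5 DRG, each against its own sham array. The DRG value did not reach 2-fold and uses the same sham DRG array. The difference was not tested, and of the 3 Ogn probes 1 had a DRG value below 0 (-0.06).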

How the results depend on the processing

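Each count of members at least 2-fold higher or lower was recomputed under 8 alternatives. Of 128 counts, 115 stayed within 1.5 times the main count and 13 did not. With a 3-fold limit the day 1 nerve had 0 lower members, the day 5 nerve 0 higher, and the day 5 nerve against the day 1 nerve 1 higher (Bgn) and 0 lower. With a 1.5-fold limit the lower members were 5 in the day 5 nerve, 1 in the day 5 DRG (Bgn), 7 in the day 5 DRG against the day 5 nerve, and 5 in the cord against the day 5 DRG. The lower member between the day 1 and day 5 nerve, Ogn, was lost (0) with quantile normalization, neqc, the processed table and the mean over probes, and with neqc Fmod became the 1 higher gene in the cord against the day 5 DRG. Of 329 single values, 327 kept their sign, 293 stayed within the bead interval, and 0 called values reversed.

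Over all genes on day 1 the higher and lower calls were 669 and 367, but 842 and 264 without scaling (median of all genes 0.12), 590 and 442 with quantile normalization, and 924 and 897 with neqc, and on day 5 638 and 515 against 978 and 976 with neqc. No paired analysis was possible because each condition has 1 array. The dim genes Fmod and Omd depended on background correction. Their day 1 log2 differences were -1.46 and -1.52 in the main setting and -2.20 and -1.91 with neqc. On day 5 they were -1.26 and -1.79 in the main setting and -1.82 and -2.23 with neqc. Their changes set against those of bright genes carry the same limit.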
